A study of Mus musculus with 250 samples.

Results

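The genes described here are 10 genes of the extracellular matrix and the cell surface, chosen by name: Sparc and Sparcl1 of the SPARC family, the proteoglycan genes Ncan, Bcan and Vcan, the receptor phosphatase gene Ptprz1, the tenascin gene Tnc, the link protein gene Hapln1 and the glypican genes Gpc4 and Gpc5. All 10 have a row in the deposited table of 24490 genes, of which 16367 had at least 1 read. The cells are 250 single cells from the brains of adult C57BL/6 mice that carry SM22-Cre and the reporter Rosa26-stop-tdTomato, a Cre line driven by a smooth muscle promoter. Their titles call them astrocytes, while the column names begin with Brain.VSMC2 (162 cells, plate 2 here) or Brain.VSMC3 (88 cells, plate 3 here). The labels do not say what these prefixes stand for, and they are taken here as sorting plates. No animal is named, so the cells form 1 group without replicates. All values describe these cells and carry no test. An SD given with a mean is the spread between cells.

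SPARC and its relative SPARCL1, also called hevin, are secreted proteins that bind collagen and act on cells more than they build structure. In the brain, hevin from astrocytes promotes the formation of synapses between neurons, and SPARC opposes that action. Neurocan, brevican and versican (Ncan, Bcan, Vcan) are lecticans, core proteins that carry chondroitin sulfate chains and bind hyaluronan at one end. Link proteins such as that of Hapln1 fix them to hyaluronan, and tenascins such as that of Tnc bind their other end, which gives the loose matrix around brain cells and the denser nets around some neurons. Ptprz1 makes a receptor tyrosine phosphatase that carries chondroitin sulfate, and a secreted form of it is known as phosphacan. Glypicans are held on the cell surface by a lipid anchor and carry heparan sulfate, and glypican 4 from astrocytes recruits glutamate receptors to synapses.

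Levels are read counts scaled to 1000000 reads per cell (CPM), and a gene was called detected at 10 CPM or more. Cells had 102161 to 564958 reads, with a median of 256247 on plate 2 and 391072 on plate 3. The label was checked against markers. Of 12 astrocyte markers, 11 reached detection in 50% of the cells or more, Gfap being the exception at 12.8%, and their summed level ran from 16734 to 56865 CPM per cell. Summed markers of endothelial cells had a median of 8.01 CPM per cell (range 0 to 1077), those of microglia and macrophages 6.96 CPM (0 to 1756) and those of fibroblasts 5.51 CPM (0 to 1264). Smooth muscle and pericyte markers, the cells that the column names point to, had 18.0 CPM (0 to 1211), with Myh11 and Tagln detected in 5 cells each, Acta2 in 39, Vtn in 13 and Pdgfrb in 94 (37.6%, 88.4 CPM). Neuron markers had 29.0 CPM (0 to 2464), with a median of 21.1 on plate 2 and 57.3 on plate 3, and 12 cells had 3 or more of these 10 markers.

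Of the 10 genes, 6 passed detection in 50% of the cells, where 5.92% of all genes with reads did. The same 6 passed on each plate taken alone, where 5.29% of all genes did so on both. They are Sparcl1, Sparc, Bcan, Ptprz1, Ncan and Gpc5. The other 4, Gpc4, Hapln1, Tnc and Vcan, were each detected in under 10% of the cells. A cell had 4 to 7 of the 10 genes, with 6 in 127 cells, 5 in 66, 7 in 32 and 4 in 25. Together the 10 genes took 2.34 ± 0.632% of a cell's reads (n = 250 cells), from 0.955% in the lowest cell to 4.18% in the highest.

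**Figure D1:**
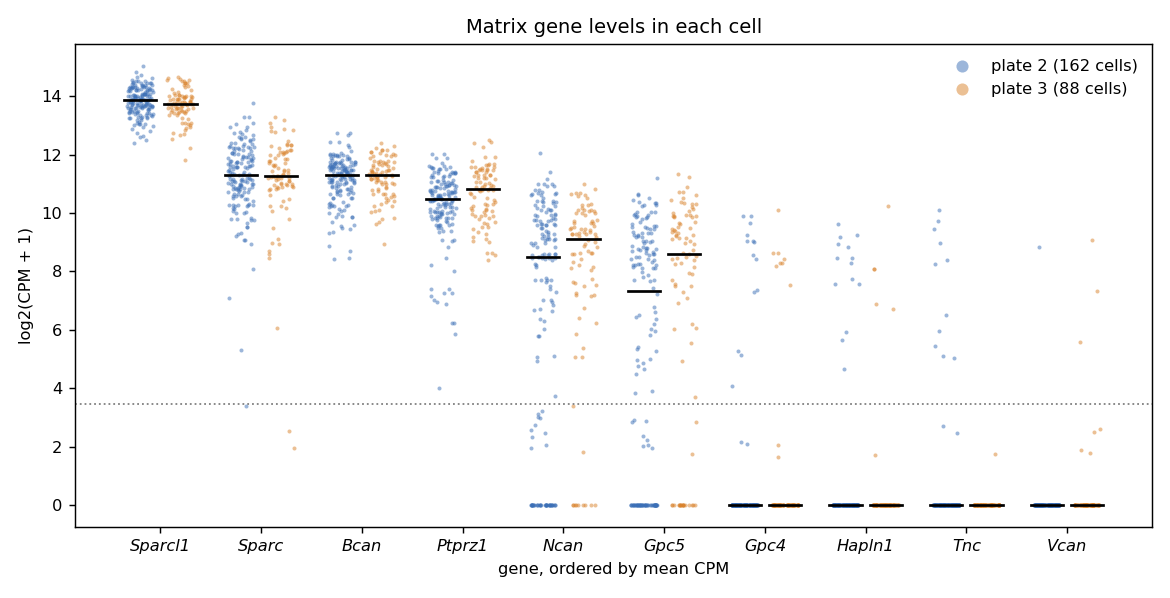
Level of each gene in each cell as log2(CPM + 1), with plate 2 in blue and plate 3 in orange. Each point is a cell, the black bar is the median of the plate and the dotted line is 10 CPM. Sparcl1 lies in a narrow band, Sparc has a tail of low cells, Ncan and Gpc5 have a row of cells at 0, and the 4 genes on the right are at 0 in most cells. CPM is not divided by gene length.

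Sparcl1 was read in every cell. Its lowest cell had 3626 CPM, the median cell 14322 CPM and the highest 33851 CPM. The mean was 14977 ± 4983 CPM (n = 250 cells), 15356 on plate 2 and 14279 on plate 3. Its 90th percentile of cells was 2.54 times its 10th percentile, the narrowest spread of the 4 genes detected in nearly all cells. On each plate its squared coefficient of variation (CV) was close to the trend of all genes of its level, at 0.986 times the trend on plate 2 and 1.03 times on plate 3. Sparcl1 lies on chromosome 5 at 104079111 to 104113733 (GRCm38, minus strand).

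Sparc spread much more widely. Its lowest cell had 2.82 CPM, the median cell 2502 CPM and the highest 13970 CPM, and the mean was 3101 ± 2160 CPM, with 3098 on plate 2 and 3105 on plate 3. The 90th percentile was 6.62 times the 10th, and the squared CV was 1.79 times the trend on plate 2 and 1.67 times on plate 3. Every cell had at least 1 read of Sparc, 247 cells had 10 CPM or more and 221 had 1000 CPM or more. The 3 cells under 10 CPM had 1 or 2 reads each, 1 of them on plate 2 and 2 on plate 3. Sparc lies on chromosome 11 at 55394500 to 55423183 (minus strand).

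Per kilobase of annotated exons, which allows levels of different genes to be compared, Sparcl1 exceeded Sparc in all 250 cells. Mean levels were 5099 ± 1696 CPM per kb for Sparcl1 and 819 ± 570 CPM per kb for Sparc. The ratio of Sparcl1 to Sparc within a cell had a median of 7.17 (95% interval of the median over cells 6.52 to 7.81), with quartiles of 4.62 and 11.3. The lowest ratio was 1.92, in a cell with 4331 Sparc reads and 6443 Sparcl1 reads. At the other end, 78 cells had a ratio above 10 and 6 cells above 100. The highest was 5158, in a plate 3 cell with 1 Sparc read and 3999 Sparcl1 reads, which was also the cell with the most Hapln1. The medians of the plates were 7.28 and 6.65. The ratio depends on the length used. With the longest coding transcript of each gene (2300 bases for Sparc, 2759 for Sparcl1) in place of all exons (3788 and 2937 bases) the median was 4.63 and the lowest cell 1.24, and Sparcl1 was again higher in all 250 cells.

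The levels of the family pair rose and fell together from cell to cell. Spearman's rho of Sparc with Sparcl1 was 0.485 over the 162 cells of plate 2 and 0.496 over the 88 cells of plate 3. Among the 865 other genes detected in at least 50% of the cells of both plates, Sparcl1 was the gene most like Sparc, and Sparc the gene most like Sparcl1, when genes were ordered by the plate with the value nearer 0. Neither led on a single plate. Cd81, Nnat and Itih3 were higher with Sparc on plate 2, and Apoe on plate 3. With Sparcl1, Nnat was higher on plate 2, and Apoe and Ntrk2 on plate 3. The values for Sparc with Sparcl1 were 0.462 and 0.503 with cells thinned to 50000 reads. With depth and genes detected held fixed they were 0.458 and 0.490. Without the 3 cells under 10 CPM of Sparc, an alternative added with the data in view, they were 0.476 and 0.471. Cells of a plate share a column prefix, and their animals are unknown.

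**Figure D2:**
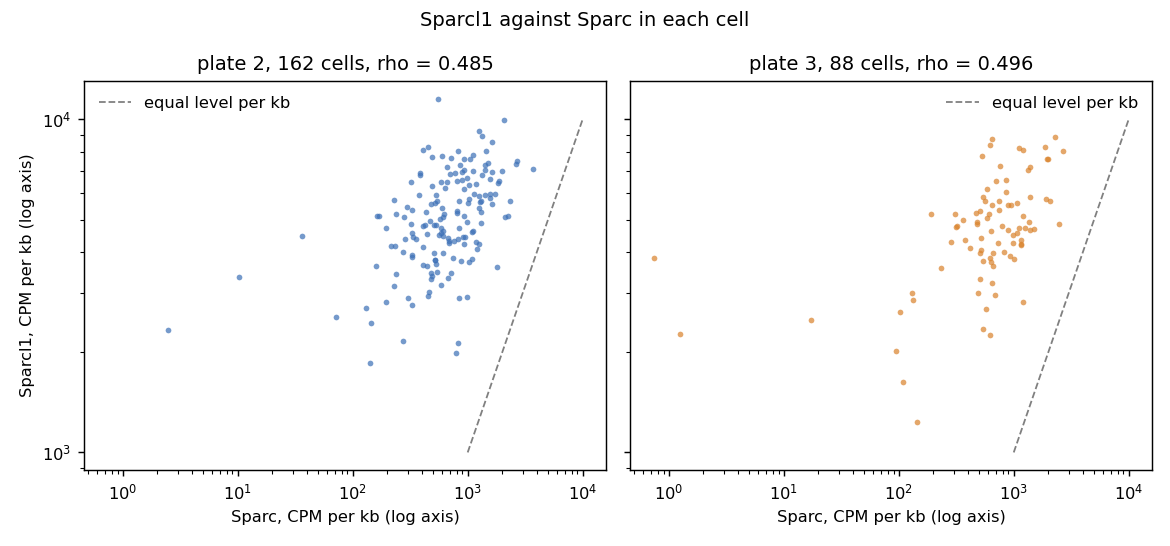
Sparcl1 against Sparc in each cell, as CPM per kb of annotated exons on log axes, for plate 2 (left) and plate 3 (right). The dashed line marks equal levels, and all 250 cells lie on the Sparcl1 side of it. Cells low in Sparc tend to be in the lower part of the Sparcl1 range, with rho of 0.485 and 0.496.

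Other genes that went with Sparc were Nnat (neuronatin, a proteolipid of the endoplasmic reticulum), with rho of 0.543 and 0.462 on plates 2 and 3, and the cystatin C gene Cst3 with 0.431 and 0.423. By Pearson's r of log2(CPM + 1) the values were lower for both, at 0.364 and 0.234 for Nnat and 0.361 and 0.237 for Cst3. Itih3, a marker of astrocytes outside the telencephalon whose protein binds hyaluronan, had 0.526 and 0.366 with Sparc, and 0.199 and 0.260 with Sparcl1. Agt, the angiotensinogen gene, had 0.420 and 0.353 with Sparc, and 0.235 and 0.297 with Sparcl1. Other region markers were weaker with Sparc. Slc6a11 had 0.317 and 0.198, while Slc6a9 had -0.0581 and 0.161 and Mfge8 0.121 and -0.00380, so the last pair changed sign between plates. With Nnat held fixed Sparc and Sparcl1 had a partial rank correlation of 0.293 and 0.408, and with Itih3, Nnat and Agt all held fixed 0.325 and 0.371. These genes were picked for it with the data in view. For Sparcl1, the next genes after Sparc were the apolipoprotein E gene Apoe, with 0.395 and 0.526, and the lipid phosphatase gene Ppap2b, with 0.347 and 0.373.

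At the opposite end stood Htra1 for Sparc. Htra1, the gene of a secreted serine protease, had rho of -0.394 and -0.476 with Sparc, and Sod3, which codes for extracellular superoxide dismutase, had -0.314 and -0.269. Pearson's r of log2(CPM + 1) was smaller in size, at -0.299 and -0.242 for Htra1 and -0.275 and -0.150 for Sod3. For Sparcl1 the lowest was the nuclear noncoding RNA Malat1, with -0.339 and -0.352. Malat1 takes a large share of the total by which CPM is scaled, and with Malat1 and Rn45s left out of the total the values were -0.295 and -0.284. Aifm3, which codes for a mitochondrial protein, was next with -0.249 and -0.267.

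Of 865 genes, 23 (2.66%) had a rho of at least 0.2 with Sparc on both plates and 15 (1.73%) had -0.2 or lower on both. The counts for Sparcl1 were 17 (1.97%) and 10 (1.16%). They were 4 and 2 for Bcan, 2 and 0 for Ncan, 2 and 0 for Gpc5, and 0 and 0 for Ptprz1. Pooled over these 6 genes the shares were 0.925% and 0.520%. Counts for genes outside the 6 are not given here, so whether any of these counts is unusual for a gene of its level was not tested.

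Among the 15 pairs formed by the 6 widely detected genes, 1 pair had a rho of at least 0.2 on both plates, Sparc with Sparcl1, and 1 pair had -0.2 or lower on both, Sparc with Bcan. Over all pairs of such a gene with any of the 865 others, 0.925% passed in the positive direction and 0.520% in the negative. The remaining 13 pairs did not pass on both plates. Their values include 0.241 on plate 2 and 0.0250 on plate 3 for Ncan with Bcan, and 0.0763 and 0.0636 for Ncan with Ptprz1.

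**Figure D3:**
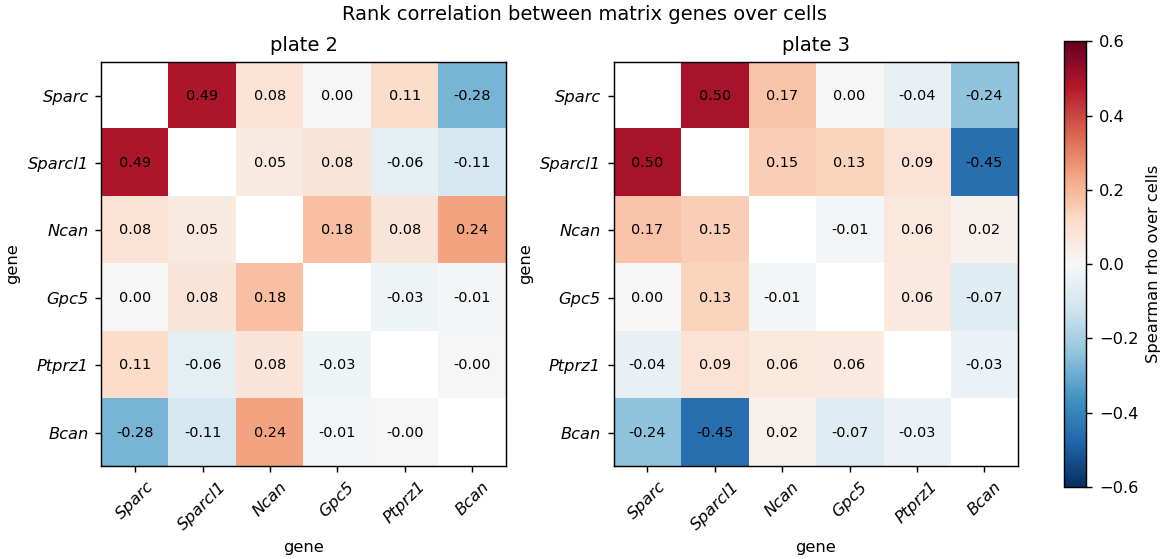
Spearman's rho over cells between the 6 genes detected in at least 50% of cells, on plate 2 (left) and plate 3 (right), with red for positive and blue for negative values. The pair Sparc and Sparcl1 is positive on both plates, and Bcan is negative with both of them, with rho of -0.106 and -0.455 for Sparcl1.

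Bcan, the brevican gene, was read in every cell, from 341 CPM in the lowest through 2542 CPM in the median to 6925 CPM in the highest. Its mean of 2570 ± 1169 CPM was nearly the same on both plates, 2551 and 2604 CPM. It varied less than genes of its level, with a squared CV of 0.716 times the trend on plate 2 and 0.578 times on plate 3. Per kb of exons Bcan had 632 ± 288 CPM, next below Sparc, and Sparc was the higher of the pair in 140 of 250 cells, so their order does not hold from cell to cell. By the longest coding transcript Sparc was the higher in 159 cells. Bcan lies on chromosome 3 at 87987531 to 88000230 (minus strand).

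The cells ranked by Bcan ran against those ranked by Sparc. The rank correlation between the genes was -0.281 on plate 2 and -0.241 on plate 3, and by the plate nearer 0 Sparc was the lowest of 865 genes with Bcan, though other genes were lower on each plate alone. With depth and genes detected held fixed the values were -0.251 and -0.268. Bcan itself had a rho of 0.266 and 0.240 with the number of genes detected in the cell. With Nnat held fixed, also added with the data in view, the values for Sparc and Bcan were -0.153 and -0.167. Bcan and Sparcl1 had -0.106 on plate 2 and -0.455 on plate 3, so the size was not alike on the plates. Nnat itself had -0.290 and -0.210 with Bcan. On the positive side, the genes most like Bcan were Htra1, with 0.282 and 0.309, the glial receptor gene Gpr37l1, with 0.323 and 0.232, and the glutamate receptor subunit gene Gria2, with 0.227 and 0.227. With depth and genes detected held fixed Htra1 had 0.231 and 0.268, Gpr37l1 0.276 and 0.148, and Gria2 0.192 and 0.264, so that of these 3 genes Htra1 alone kept 0.2 on both plates. Htra1 and Nnat thus stand at opposite ends for Sparc and for Bcan, and these comparisons share the same cells.

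**Figure D4:**
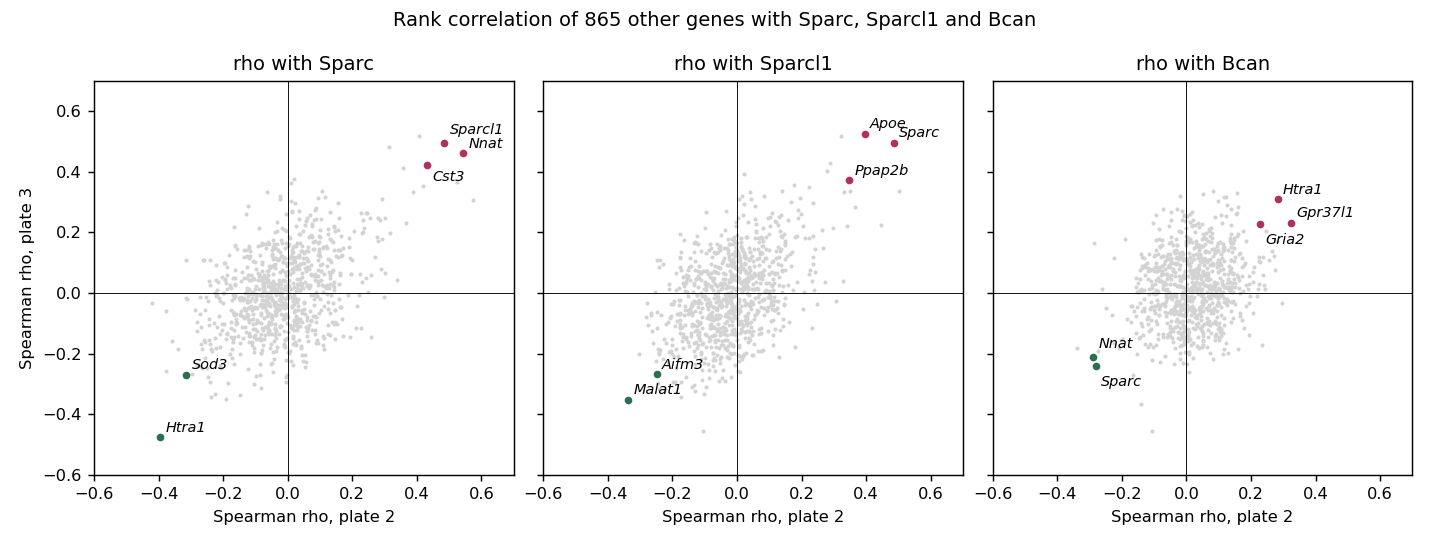
Spearman's rho of 865 genes with Sparc (left), Sparcl1 (middle) and Bcan (right), plate 2 on the horizontal axis and plate 3 on the vertical. Grey points are genes, red points the 3 highest and green points the 2 lowest by the plate nearer 0. Nnat is high with Sparc and low with Bcan, and Htra1 is low with Sparc and high with Bcan.

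Ptprz1 was also read in every cell. Its lowest cell had 15.0 CPM, the median cell 1494 CPM and the highest 5768 CPM, with a mean of 1685 ± 1011 CPM. Means were 1533 CPM on plate 2 and 1965 CPM on plate 3. In CPM per kb its mean was 118 ± 71.0, below Bcan in 241 of 250 cells. The squared CV was 0.733 times the trend on plate 2 and 1.00 times on plate 3. Ptprz1 followed no other gene closely. Its highest partner was Btbd17, with rho of 0.153 and 0.182, and its lowest was the dystroglycan gene Dag1, with -0.164 and -0.273. Ptn, whose protein pleiotrophin is a ligand of the receptor, had 0.113 and 0.0297, and Mdk, the gene of the related ligand midkine, had -0.0444 and 0.0305. Ptprz1 lies on chromosome 6 at 22875502 to 23052916 (plus strand).

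Ncan, the neurocan gene, was detected in 193 cells (77.2%, exact 95% interval 71.5 to 82.3%) and had no read in 45. Its median was 396 CPM and its highest cell 4242 CPM, with a mean of 578 ± 615 CPM, and 54 cells had 1000 CPM or more. The means were 567 CPM on plate 2 and 598 CPM on plate 3, while the medians were 362 and 559 CPM, a log2 ratio of 0.63. Detection was 71.6% (64.0 to 78.4%) on plate 2 and 87.5% (78.7 to 93.6%) on plate 3. In cells thinned to 50000 reads, where a single read already exceeds 10 CPM, the shares were 72.2% and 87.5%. The squared CV was 1.53 times the trend on plate 2 and 0.837 times on plate 3. Ncan had a rho of 0.265 and 0.161 with the number of genes detected. Its 3 closest genes were Apoe, with rho of 0.222 and 0.213, AI464131, with 0.260 and 0.205, and Cml1, with 0.322 and 0.177. With depth and genes detected held fixed Apoe had 0.204 and 0.185, AI464131 0.220 and 0.202, and Cml1 0.299 and 0.148. Ncan lies on chromosome 8 at 70093085 to 70120873 (minus strand).

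Gpc5, a glypican gene that spans 1433 kb of chromosome 14 (115092215 to 116525179, plus strand), was detected in 170 cells (68.0%, 61.8 to 73.7%) and had no read in 70. The median over all cells was 278 CPM and the highest cell had 2595 CPM, while the median over cells with detection was 505 CPM. Its mean was 416 ± 499 CPM, with 339 CPM on plate 2 and 558 CPM on plate 3. Shares of cells were 63.0% (55.0 to 70.4%) and 77.3% (67.1 to 85.5%), or 59.3% and 75.0% with any read after thinning. Per kb of exons Gpc5 had 93.4 ± 112 CPM and Ncan 80.4 ± 85.4 CPM. Ncan was the higher of these in 116 cells, Gpc5 in 112, and both were at 0 in 22, so their order is not resolved. By the longest coding transcript Gpc5 was the higher in 131 cells and Ncan in 97. Gpc5 went with the haem transporter gene Slc48a1 (rho 0.237 and 0.242), the adhesion gene Vcam1 (0.205 and 0.216) and Gpr37l1 (0.193 and 0.235). With depth and genes detected held fixed Slc48a1 had 0.238 and 0.236, Vcam1 0.134 and 0.202, and Gpr37l1 0.141 and 0.222. Gpc5 and Itih3 had a rho of 0.117 and 0.257. An exon of Gm20713 on the opposite strand overlaps Gpc5, and the strand setting of the counting is not given, so reads of the pair cannot be told apart there.

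**Figure D5:**
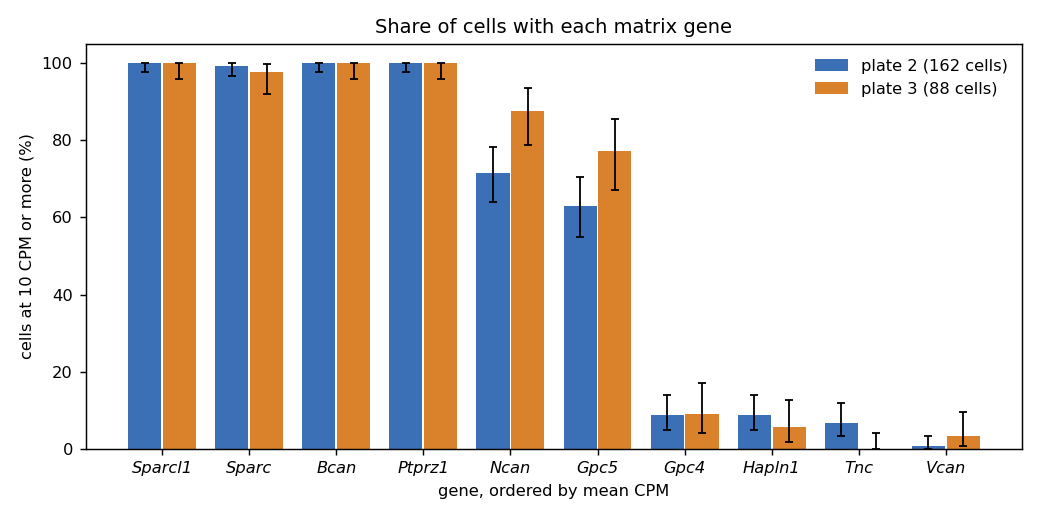
Share of cells with each gene at 10 CPM or more, plate 2 in blue and plate 3 in orange, with exact 95% binomial intervals as error bars. Sparcl1, Sparc, Bcan and Ptprz1 are at or near 100% on both plates, Ncan and Gpc5 have higher shares on plate 3, and the remaining 4 genes are under 10%.

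Gpc4 was detected in 22 cells (8.80%, 5.60 to 13.0%), 14 on plate 2 and 8 on plate 3. Where it was detected its level was not low, with a median of 361 CPM and a highest cell of 1099 CPM. Its mean over all cells was 37.5 CPM, 37.2 on plate 2 and 37.9 on plate 3. Gpc4 was detected together with Tnc in 0 cells, where independence within plates would give 0.951, and with Hapln1 in 1 cell, against 1.66. Numbers this small cannot tell independence from association or avoidance. Both glypicans were detected in 16 cells, against 15.0 under independence. Gpc4 lies on chromosome X at 52053021 to 52165252 (minus strand).

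Hapln1 was detected in 19 cells (7.60%, 4.64 to 11.6%), with a median of 271 CPM among them and a highest cell of 1219 CPM. The highest cell held 64.4% of the reads on plate 3. Ncan was also detected in 18 of these 19 cells, where independence within plates would give 14.4. Its mean was 28.9 CPM on plate 2 and 22.5 CPM on plate 3. Hapln1 and Vcan are neighbours on chromosome 13, at 89539796 to 89611652 (plus strand) and 89655312 to 89742509 (minus strand).

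Tnc was read almost only on plate 2. It was detected in 11 of 162 cells there (6.79%, 3.44 to 11.8%) and in 0 of 88 cells on plate 3 (exact 95% upper limit 4.11%). A simpler bound for a gene detected in 0 cells, 3 divided by the 88 cells, gives a share of up to 3.41%. Plate 2 had 908 Tnc reads in 13 cells and plate 3 had 1 read. The highest cell had 1101 CPM and held 31.6% of all Tnc reads. What separates the plates is not stated and the animals are unknown, so plate and animal cannot be told apart. Tnc lies on chromosome 4 at 63959785 to 64047015 (minus strand), and an exon of 8030451A03Rik on the opposite strand overlaps it.

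Per kb of exons the 4 sparse genes had means of 14.1 CPM for Gpc4, 4.51 CPM for Hapln1, 2.10 CPM for Tnc and 0.337 CPM for Vcan. Vcan was detected in 4 cells (1.60%, 0.438 to 4.05%), 1 on plate 2 and 3 on plate 3. A single cell held 183 of its 303 reads, at 541 CPM, and without it the mean fell from 4.88 to 2.72 CPM. Versican is known as abundant in oligodendrocyte precursors. That cell had 2 of 10 markers of these precursors, Pdgfra and Olig1, and 10 of 12 astrocyte markers.

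Markers of other cells known for these genes were counted. Of the 10 precursor markers, Olig1 was the 1 that passed detection in 50% of the cells, and astrocytes can also express it. Olig2 was detected in 83 cells (33.2%) and Nkx2-2 in 62 (24.8%). The summed level of the list was 314 CPM in the median cell (0 to 2275), C1ql1 had no read, Sox10 and Gpr17 were detected in 0 cells and Pdgfra in 2. The rank correlation with this list was 0.0869 and 0.116 for Bcan and 0.0237 and 0.172 for Ptprz1. Endothelial cells are known for Sparc, and 0 of 10 endothelial markers passed, with Cdh5, Kdr and Emcn detected in 0 cells, Pecam1 in 1 and Cldn5 in 2. Their sum had a rho with Sparc of 0.221 on plate 2 and -0.135 on plate 3. The summed oligodendrocyte markers had a rho of 0.191 and 0.202 with Sparc, and -0.0285 and 0.260 with Sparcl1. Of that list 2 of 10 passed, and its sum had a median of 806 CPM (0 to 4075). Its markers Mog, Mag, Cldn11, Ermn and Opalin were detected in 1 cell each. The part of these transcripts in the Sparc results was not tested.

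Between the plates, 0 of the 8 genes with a mean of 20 CPM or more differed by 2-fold or more in mean, where 10.2% of all genes at that level did. For 8 genes a count of 0 is near that share. By direction 3.66% of all genes at that level were higher on plate 3 and 6.56% higher on plate 2. Log2 ratios of plate 3 over plate 2 ran from -0.36 for Hapln1 to 0.72 for Gpc5, with 0.003 for Sparc, 0.03 for Bcan, 0.08 for Ncan, 0.36 for Ptprz1 and -0.10 for Sparcl1. By median CPM Gpc5 had 161 CPM and 391 CPM, a log2 ratio of 1.28. Without the highest cell of each plate the value for Hapln1 was -1.46. Tnc and Vcan lie under that level, and their means differed by more than 2-fold in opposite directions on few cells.

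Of the 8 genes, 4 had a squared CV above the trend on both plates (Sparc, Gpc4, Gpc5 and Hapln1), where 36.7% of all genes did. For 8 genes a count of 4 is near that share, and Gpc5 was only 1.14 and 1.20 times the trend. Sparc ranked 87th and Gpc4 113th of 6381 genes by the plate with the lower value, while Bcan ranked 5597th.

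Genes around the 10 were counted by role, against the 5.92% of all genes with reads that passed detection in 50% of the cells. In the SPARC family 2 of 8 genes passed detection in 50% of the cells, Sparc and Sparcl1. Fstl1, a secreted relative, was detected in 107 cells and Smoc1 in 41, while Spock1, Spock3 and Smoc2 were detected in 3, 2 and 0 cells. Among lecticans, link proteins and tenascins 2 of 12 passed, Bcan and Ncan. Acan, the aggrecan gene, had no read, the link protein genes Hapln2, Hapln3 and Hapln4 were detected in 1, 2 and 2 cells, and Tnr, the tenascin gene that brevican and neurocan bind, in 1 cell. Genes that make hyaluronan, to which lecticans attach, were rarely detected, with Has1 and Has3 in 2 cells each and no read of Has2. The hyaluronan receptor gene Cd44 was detected in 4 cells. In that list of 12 genes Itih3 was the 1 that passed.

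Several other surface proteoglycan genes were detected more often than Gpc4. Of 10 glypican and syndecan genes 4 passed, with the syndecan genes Sdc4 in 242 cells at 948 ± 625 CPM, Sdc3 in 151 and Sdc2 in 149 beside Gpc5. Gpc1 was detected in 52 cells, Gpc6 in 36, Gpc2 in 25 and Gpc3 in 3. Of 15 further proteoglycan and related genes 3 passed, among them Cspg5, the neuroglycan C gene, in 166 cells and the agrin gene Agrn in 145.

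Each enzyme gene of the sugar chains was detected in fewer cells than Gpc5, Ncan, Bcan or Ptprz1. Of 21 genes of chondroitin sulfate synthesis 0 passed, a share near the 5.92% of all genes for a list of this size, and the nearest was Csgalnact1, which starts the chain, in 122 cells (48.8%). Chpf, a polymerising factor, was detected in 73 cells and the sulfotransferase genes Chst12 and Chst11 in 61 and 49. Of 20 genes of heparan sulfate synthesis and editing 1 passed, also near that share. It was Extl1, in 132 cells, and its relative Extl3 was detected in 103.

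Of 16 matrix proteases and inhibitors 4 passed. The inhibitor genes Timp3 and Timp4 were detected in 242 and 208 cells, with 1401 ± 972 and 804 ± 735 CPM, the cathepsin gene Ctsb in 236 and the membrane protease gene Mmp14 in 166. Adamts4, which codes for a protease that cuts brevican, Mmp3 and Mmp9 had no read, and Adamts5 was detected in 4 cells. Of 21 ligands and receptors 9 passed, with Ptn and the adhesion gene Nrcam in 225 each, Mdk in 171 and the contactin gene Cntn1 in 153. Among other astrocyte genes that regulate synapses, Gpc6 was detected in 36 cells, Thbs2 in 28, Chrdl1 in 4 and Thbs1 in 0.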

How the data were processed

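Single brain cells were sorted into wells and full-length cDNA was made with Smart-seq2, per the labels' protocols. The submitters' processing notes name STAR 2.4.2a and the build mm10. Not given in the sources used here: which program counted reads, on which strand and annotation, and which cells were kept. The authors deposited raw read counts per gene and cell, in whole numbers. Smart-seq2 has no molecular identifiers. Intervals of shares and of the median ratio are over numbers of cells. They treat cells as independent, although their animals are unknown. The second deposited table, scaled by the authors, was not used.

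Counts were divided by the cell's total and scaled to 1000000 (CPM). All 250 columns matched a sample and no cell was removed. Trends of squared CV used loess with a span of 0.1 (statsmodels 0.14.6) on each plate, for genes with a mean of 20 CPM on both plates. Rank correlations were computed within each plate. The partner genes named are the 3 highest and 2 lowest per gene, and region markers, known partners and neighbouring genes are named beside them. Gene lengths and positions come from GENCODE M21 (GRCm38). Statistics over all genes were tested on simulated data. The genes, lists and measures were chosen with earlier results of these data known. The list of further proteoglycans also holds Apln, which is not one, and Tmem2 had no length in GENCODE. Some genes of the lists are not reported here.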

Additional observations from a re-analysis of the deposited data

How the results depend on the processing

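The number of genes detected in at least 50% of cells was 6 at 1 read, at 50 CPM and after thinning to 50000 reads. After thinning a single read exceeds 10 CPM, so any read counts as detection there. The summed mean of the 10 genes, 23411 CPM, was 24620 with Malat1 and Rn45s left out of the total, 23286 with median-of-ratios size factors and 23219 without the highest cell of each gene. The median ratio of Sparcl1 to Sparc, 7.17, was 4.63 with the longest coding transcript as length and 7.02 after thinning. The rank correlation of Sparc with Sparcl1, 0.490 as a mean of both plates, was 0.474 to 0.501 under Pearson's r, thinning, depth held fixed, either plate alone, or a total without both genes. It was 0.451 with Itih3 held fixed, 0.348 with Itih3, Nnat and Agt held fixed, and 0.473 without cells under 10 CPM of Sparc, all 3 added with the data in view. The count of positive pairs was 1 by Pearson's r, after thinning and with depth held fixed. Genes above the CV trend on both plates numbered 4, 5 with a span of 0.3 (Sparcl1 added) and 6 with a filter of 1 CPM (Sparcl1 and Vcan added). Of the 10 genes, 2 (Tnc and Vcan) were past a 2-fold plate ratio, a count that was 1 by medians (Gpc5), 1 after thinning (Tnc), 2 with median-of-ratios size factors and 3 if each plate lost its highest cell (Hapln1 added), with a plate at 0 counted as past 2-fold. Of 93 alternative values for single genes, 67 stayed within their counting interval or on their side of 2-fold and 26 did not. The counting interval is not the spread between cells, so the 26 include small shifts. Without its highest cell the Sparc mean went from 3101 to 3057 CPM and counted among them, beside an SD between cells of 2160 CPM. No plate ratio past 2-fold changed direction, while ratios near 1 such as that of Sparc did change sign. Genes with few positive cells rest on single cells, since without its highest cell the mean of Tnc was 12.0 CPM, of Hapln1 21.8 CPM and of Gpc4 33.2 CPM. No paired analysis was possible because the cells form 1 group and their numbers pair nothing.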
